A study of Mus musculus with 2 samples.

Results

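Monocyte-type progenitors were examined in mouse bone marrow cultures, as the cells that held transcripts of Irf8, F13a1 and Mpo together. They were selected on measured values. A cell was taken when it carried 1 hashtag of culture day 0 or day 3, had 500 or more detected genes and less than 15% mitochondrial UMIs (unique molecular identifiers, which count captured transcript molecules), and held at least 2 UMIs of Irf8, 1 of F13a1 and 5 of Mpo. Of the 8913 kept cells of both days, 555 met this rule, 455 on day 0 and 100 on day 3. The kept cells of all culture days numbered 25221.

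The cultures came from bone marrow of C57BL/6 mice aged 8 to 10 weeks, from which lineage-positive cells had been depleted with a kit, so that the remaining progenitors were a mixture. The culture protocol used GM-CSF at 20 ng/ml from the start, and fresh medium with 40 ng/ml on day 2, which by its label the day 0 sample had not reached. Heme bound to albumin, at 300 µM, was given on day 3 to 1 group and albumin alone to the other group (control), and each group was 1 droplet-based 3′ library of 5 pooled hashtagged cultures. Hence, by the labels, neither library had been exposed to heme on day 0, and the day 3 cultures stand at the time of addition. It is not described whether the day 0 and day 3 cultures of the libraries were separate or 1 culture split between them. With 1 library per group there is no replicate check, no p-value is given, and all intervals are exact 95% intervals that cover counting error only.

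Progenitors that carry Mpo, the gene of the granule enzyme myeloperoxidase, can give rise to granulocytes and to monocytes. The transcription factor Irf8 acts with PU.1 (Spi1) to favour the monocyte and dendritic cell fates, whereas Gfi1 and Cebpe favour the granulocyte fate. F13a1 encodes the A subunit of coagulation factor XIII and is carried by cells of the monocyte line. GM-CSF signals through the receptor chains Csf2ra and Csf2rb to STAT5, which induces feedback genes such as Cish.

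In GRCm38, Irf8 lies on the plus strand at chr8:120736358-120756694, F13a1 on the minus strand at chr13:36867178-37050244 and Mpo on the plus strand at chr11:87793581-87804413. Ms4a6c, which encodes a membrane protein of the MS4A family and was a marker of these cells outside the rule, lies on the plus strand at chr19:11469366-11482192.

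The 250 bases before each RefSeq transcription start (GRCm38.p6) were searched on both strands for letters bound by PU.1 (GAGGAAGT) and for paired sites of IRF factors with PU.1 (GGAA, any 2 letters, GAAA) and without it (GAAA, any 2 letters, GAAA). The paired sites differ at the second letter, so no stretch matches both. These factors act in both fates. The sequences shown are those of 4 primary granule genes and of Ctss, from the monocyte surface and effector list. Of these genes, only Elane divides the cells into groups below. Of 8 primary granule genes, 7 were matched to a promoter, and GAGGAAGT was found in 4 of these, Elane, Prtn3, Mpo and Ctsc, against 2.79% of 27025 genes with a promoter. It was also found in 1 of 11 matched monocyte surface and effector genes (Ly6c2), in 1 of 8 matched genes with the lowest ratios in the Irf8 F13a1 cells (Prom1) and in 0 of the 10 with the highest. The IRF pair was found in 2 of 11 matched genes of the monocyte surface and effector list, Ctss and Cybb, against 3.46% of genes. The IRF pair with PU.1 was found in 1 of the 10 genes with the largest excess in the Irf8 F13a1 cells (Il6st) and in none of the 3 rule genes, against 2.68% of genes. In the stretches of 40 bases printed here, on the strand of the gene, capitals mark the matched letters. The match lies 85 bases before the RefSeq start for Elane (chr10:79886211-79886250), 95 for Prtn3 (chr10:79879556-79879595), 224 for Mpo (chr11:87793544-87793583), 151 for Ctsc (chr7:88277918-88277957, match on the other strand) and 21 for Ctss (chr3:95526746-95526785).
Elane: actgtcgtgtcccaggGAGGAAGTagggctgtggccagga
Prtn3: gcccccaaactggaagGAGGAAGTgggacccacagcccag
Mpo: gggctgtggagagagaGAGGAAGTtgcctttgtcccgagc
Ctsc: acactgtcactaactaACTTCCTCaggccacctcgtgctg
Ctss: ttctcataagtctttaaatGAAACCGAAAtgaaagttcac
A match describes letters in these windows and was not tested for binding.

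The selected cells made up a larger share of the culture on day 0 than on day 3. They were 182 of 1646 kept cells in the control library on day 0 (11.1%, 95% exact interval 9.58 to 12.7) and 273 of 1827 in the heme library (14.9%, 13.3 to 16.7). On day 3 they were 30 of 2089 control cells (1.44%, 0.971 to 2.04) and 70 of 3351 heme library cells (2.09%, 1.63 to 2.63). Both day 3 intervals lay below both day 0 intervals. With only cells under 30% ribosomal UMIs, which left 366 control cells on day 0, the control intervals met (1.51 to 5.31 and 0.983 to 2.07).

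Cells were sequenced to different depths, and a rule on raw UMIs favours deep cells. The median UMIs of kept cells were 9920 and 10053 on day 0 and 15770 and 20197 on day 3 (control, then heme library), and those of the selected cells were 12343, 15025, 26757 and 34769. After each cell had been thinned to 5000 UMIs, which left out 411 and 406 shallower cells on day 0 and 77 and 103 on day 3, 99 of 1235 control cells (8.02%, 6.56 to 9.67) and 173 of 1421 heme library cells (12.2%, 10.5 to 14.0) met the rule on day 0. On day 3 it was met by 0 of 2012 control cells, which allows a share of up to 0.149%, and by 4 of 3248 heme library cells (0.123%, 0.0336 to 0.315). The order of the days was therefore the same at equal depth.

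**Figure D1:**
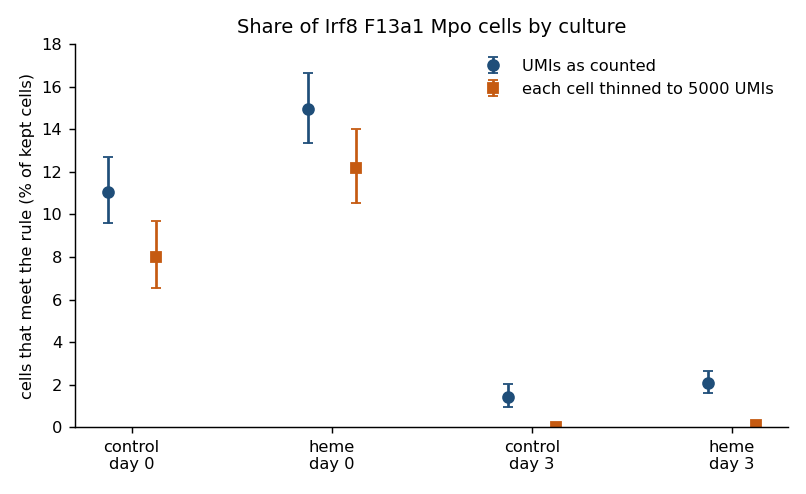
Share of kept cells that met the rule (y axis, percent) in each culture (x axis), with UMIs as counted (circles) and after thinning each cell to 5000 UMIs (squares). Bars are exact 95% intervals, and the day 3 shares lie below the day 0 shares in both libraries and at both depths.

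Several features of the libraries bear on these cells. Over 5000 genes were detected in 1 of the 182 control and 53 of the 273 heme library cells on day 0, and in 13 of 30 and 60 of 70 on day 3. Ribosomal protein genes took 30% or more of the UMIs in 171 control and 112 heme library cells on day 0 and in none on day 3. Droplets with several hashtags are doublets by label. The same 3 transcripts at the same thresholds were held by 54 of 1244 such control droplets (4.34%) and 139 of 1951 in the heme library (7.12%). The shares among cells with 1 hashtag were 11.1% and 14.9% on day 0 and 1.44% and 2.09% on day 3. These doublets had median UMIs of 28369 and 40895, against 26757 and 34769 in the selected cells of day 3. The libraries shared 112 barcodes, and 2 selected cells of the heme library carried a barcode that also occurs in the control library. The part of depth and doublets in the results was not tested beyond the values given here.

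The rule genes are given as a description only. On day 0 the median cell held 6 (control) and 10 (heme library) UMIs of Irf8, and on day 3 it held 3 and 5. For F13a1 the medians were 5 and 9 on day 0 and 2 and 3 on day 3, and for Mpo 46, 63, 12.5 and 23.5. Most day 3 cells thus stood nearer to the thresholds than the day 0 cells. In the control library on day 0, 20 cells held exactly the 2 UMIs of Irf8 that the rule asks for and 16 others missed only by holding 1, and Ms4a6c was at 299 and 290 CPM (UMIs of a gene in the summed cells, scaled to the same total in all cell sets) in these sets. In the heme library on day 0 the same edge had 12 and 15 cells, with Ms4a6c at 128 CPM in both. For F13a1, 21 control and 22 heme library cells of day 0 held the 1 UMI asked for and 39 and 46 missed with none, with Ms4a6c at 301 and 109 CPM inside and 230 and 119 CPM outside. For Mpo, 3 and 2 cells stood just inside and 2 and 3 just outside. On day 3 the counts inside and outside were 6 and 6 (control) and 13 and 19 (heme library) for Irf8, 11 and 34 and 21 and 55 for F13a1, and 4 and 2 and 4 and 10 for Mpo.

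The label was compared with marker lists. Ms4a6c was at 512 CPM in the control and 367 CPM in the heme library on day 0, and at 62.1 and 46.4 CPM on day 3. Erythroid cells of day 0 (Car1 3 or more, Klf1 1 or more, Mpo under 5 UMIs, a reference chosen after their values were seen) held 2.97 and 1.58 CPM. At 5000 UMIs a cell, 85.6% and 75.3% of the selected day 0 cells had a Ms4a6c UMI, against 0.951% and 1.11% of the erythroid cells. The part of free RNA in these values was not tested. All 9 genes of the monocyte list had a UMI in every culture, with a summed level of 2257 and 2389 CPM on day 0 and 3986 and 4815 CPM on day 3. The other kept cells also held all 9, at 503 and 845 CPM on day 0 but at 5647 and 5704 CPM on day 3, and granulocyte-type cells (defined below) held 995 and 1343 CPM and 2282 and 2990 CPM. On day 3 the summed monocyte list was thus lower in the selected cells than in the rest of the culture and did not set them apart. All 4 label markers were present, but 3 of them were used by the rule, which fixed their presence in advance. The other kept cells of each culture also held all 4. In granulocyte-type cells the 4 markers summed to 6130 and 9263 CPM on day 0 and 1642 and 2217 CPM on day 3. This was more than the 5389 and 6773 CPM and the 1307 and 1573 CPM of the selected cells. The summed label markers thus did not set the selected cells apart.

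Markers of other cells were present to unequal degrees. All 8 granulocyte progenitor markers were detected, with a summed level between 6953 and 11914 CPM. The 9 neutrophil markers summed to 913 and 2193 CPM on day 0 and 8600.5 and 4450 CPM on day 3. The other kept cells held 2101 and 3538 CPM of them on day 0 and 99414.5 and 74889 CPM on day 3. S100a8 had a UMI in 84.2% and 96.0% of the thinned erythroid cells of day 0. Its detection in the selected cells of day 0 (85.6% and 98.5%) was close to that and did not set them apart. The part of free RNA was not tested. The 7 early progenitor markers summed to 1076 and 1676 CPM on day 0 and 236 and 464 CPM on day 3. The 11 dendritic cell markers summed to between 163 and 460 CPM, with Xcr1 at 0 in 3 of 4 cultures and Flt3 at 0 in both day 3 cultures. In the other kept cells they summed to 308 and 438 CPM on day 0 and 3029 and 3023 CPM on day 3. The 8 macrophage markers summed to between 9.47 and 112 CPM, the 5 lymphoid markers to at most 10.0 CPM, the 3 eosinophil markers to at most 4.12 CPM, the 6 basophil or mast cell markers to between 9.20 and 106 CPM and the 3 megakaryocyte markers to between 7.00 and 88.7 CPM. Erythroid markers summed to 983, 321, 58.6 and 525 CPM (control and heme library on day 0, then on day 3) and plasmacytoid dendritic cell markers to 222, 207, 148 and 118 CPM, with Siglech and Ly6d at 0 on day 3. The other kept cells held 5288, 3632, 147 and 257 CPM of the erythroid markers. The cells thus carried monocyte and granulocyte progenitor transcripts together, and lymphoid markers were near 0. Macrophage markers were at 9.47 and 28.1 CPM on day 0 but at 58.6 and 112 CPM on day 3. On day 3 the other kept cells held 127 and 177 CPM of them and granulocyte-type cells 11.4 and 35.1 CPM.

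The most similar cells were granulocyte-type Mpo cells, taken as kept cells with 5 or more UMIs of Mpo, 5 or more of Elane and none of Irf8. They numbered 88 and 93 on day 0 and 298 and 466 on day 3. Compared with them in each of the 4 cultures, the Irf8 F13a1 cells held more transcripts of monocyte genes and fewer of the later granulocyte genes. Both sets were chosen on UMIs of the same cells, so the values are a description with no test. A gene is called past the fold when its CPM ratio was at least 2, or at most 0.5, in the same direction in all ratios of a comparison, with 20 or more UMIs in the pools compared and intervals that left out 1. Of 8171 genes, 93 were higher in the Irf8 F13a1 cells (1.14%) and 55 lower (0.673%), so that 62.8% of the genes past the fold were higher. This share was 52.7% with TMM factors and 51.7% with DESeq2 size factors. Under the limit of 30% ribosomal UMIs, which left 6 cells in the smallest pool and 1260 genes to test, 18 were higher and 10 lower, and Cebpe, Itga1 and Il6st were among the genes that missed the fold or the 20 UMIs. With at most 5000 genes per cell, 52 were higher and 34 lower, and Ms4a6c was among the genes that missed.

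Among transcription factors, Klf4, which drives monocyte differentiation (chr4:55527143-55532466), was at 70.0 and 86.6 CPM on day 0 and 108 and 134 CPM on day 3 in the selected cells. In granulocyte-type cells Klf4 was at 0, 2.02, 7.79 and 5.04 CPM, so it was at least 27.5-fold higher in the control library on day 0 and 42.8, 13.9 and 26.5-fold higher in the other cultures. Irf5, an activator of inflammatory genes, was at 18.5, 20.7, 39.1 and 56.9 CPM against 4.24, 5.40, 5.19 and 5.61 CPM. Zeb2, which acts with Irf8 in mononuclear phagocytes, was 2.04 to 3.85-fold higher. With Irf8 itself, which the rule used, 4 of 8 measured monocyte fate factors were higher and none was lower. Spi1, the gene of PU.1, was not past the fold, with 227, 227, 313 and 344 CPM against 206, 215, 387 and 389 CPM.

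On the granulocyte side, Cebpe, a factor of late granulocyte maturation (chr14:54710360-54712174), was at 17.3, 14.8, 33.3 and 35.5 CPM in the selected cells and 162, 136, 456 and 463 CPM in granulocyte-type cells. These are ratios of 0.107, 0.109, 0.073 and 0.0768. Gfi1, a repressor of monocyte genes, was at ratios of 0.218 to 0.25. The other 4 of 6 measured granulocyte fate factors, among them Cebpa with ratios of 0.758 to 1.18, were not past the fold. The 2 factors that were lower are thus those listed above as favouring the granulocyte fate.

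At the cell surface, Ccr2, the receptor by which monocytes leave the marrow (chr9:124101950-124113557), was at 159, 209, 152 and 266 CPM against 10.2, 12.1, 10.7 and 12.4 CPM. Its ratios were 15.7, 17.2, 14.2 and 21.4. Ms4a6c was 10.8, 11.8, 20.1 and 23.2-fold higher. Of 8 chemoattractant and adhesion receptors 3 were higher, among them Ccr2 and Cx3cr1, a chemokine receptor of monocytes. Csf1r, the receptor for M-CSF, was the only one of 6 measured growth factor receptors past it, at 75.8, 103, 37.9 and 80.4 CPM against 12.7, 19.6, 9.09 and 18.7 CPM. In the monocyte surface and effector list, Ms4a6c, F13a1, Ctss (the protease cathepsin S) and Ly86 (a partner of the receptor CD180) were higher, 4 of 9, with F13a1 used by the rule. Ly6c2, which marks classical monocytes, was not past the fold, with 1386, 1396, 2013 and 2163 CPM against 795, 949, 1830 and 2336 CPM.

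The granule genes were lower as a list, with median log2 ratios of -0.82, -1.0, -0.67 and -0.77 against 0.05, 0.04, 0.25 and 0.16 over all genes tested, but few were past the fold. Elane, the gene of neutrophil elastase (chr10:79886247-79888215), was at 3900, 3072, 3957 and 2424 CPM against 11684, 8860, 10224 and 6721 CPM, a difference that the choice of granulocyte-type cells used. Prtn3, the gene of proteinase 3, had ratios of 0.610, 0.548, 0.501 and 0.498 and was not past the fold. Ctsc, which encodes the protease that activates granule serine proteases, was higher in the selected cells, at 80.3, 85.0, 501 and 456 CPM against 34.8, 36.4, 78.7 and 83.0 CPM. The primary granule genes other than Elane and Ctsc, 6 of 8, were not past the fold in either direction.

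By rank of the ratio nearest to 1 over the cultures, the 10 leading genes without the rule genes were Itga1 (an integrin), Ly86, Gpr183 (an oxysterol receptor), Ccr2, Klf4, Prdx4 (a peroxiredoxin), Ms4a6c, Dusp22 (a phosphatase), Il6st (the shared receptor chain gp130) and Itgb7 (an integrin). Itga1 was at 32.5, 55.7, 109 and 169 CPM against 0, 1.35, 5.36 and 5.53 CPM. The 10 lowest were Cpa3 (a mast cell protease), Cebpe, Fcnb (a granule ficolin), Pglyrp1 (a granule protein that binds peptidoglycan), Cd63 (a granule membrane protein), Syne1, Ncam1, Prom1, Dach1 and Hsd11b1. Pglyrp1 was at 25.1, 55.2, 113 and 71.1 CPM against 260, 331, 1617 and 1556 CPM. The plot of 6 of these genes by culture shows intervals of the cell sets that do not meet in any culture.

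**Figure D2:**
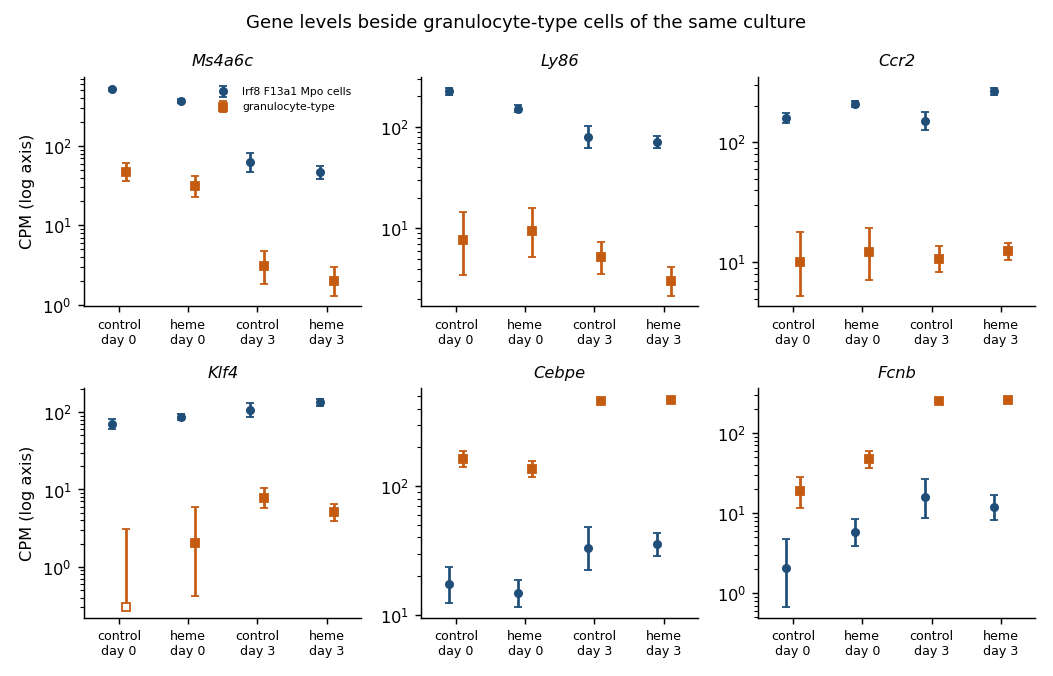
Levels of 6 genes (y axis, CPM, log axis) by culture (x axis) in Irf8 F13a1 Mpo cells and in granulocyte-type cells, with exact 95% intervals for counting error and open symbols at 0.3 CPM for a count of 0. Ms4a6c, Ly86, Ccr2 and Klf4 lie higher and Cebpe and Fcnb lower in the Irf8 F13a1 Mpo cells of each culture.

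Other lists differed in few genes. Slc40a1, the iron exporter ferroportin, was lower (1 of 7 heme and iron genes). H2-DMa, a chaperone of MHC class II peptide loading, was higher (1 of 6 MHC class II genes), as was Fabp5, a fatty acid binding protein (1 of 5 lipid handling genes). None of 16 cell cycle, 9 glycolysis, 9 cholesterol synthesis, 7 handling response, 5 chemokine, 4 interferon-stimulated and 3 cytokine feedback genes tested was past the fold. The median UMIs of the cell cycle list per 5000 UMIs were 13, 15, 15 and 17 in the selected cells, 11, 13, 14 and 17 in granulocyte-type cells and 16, 17, 14 and 15 in the other kept cells.

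Among themselves the day 0 cells spread widely in Elane. At 5000 UMIs a cell, Elane ran from 0 to 81 UMIs with a median of 11.0 in the control library, and from 0 to 66 with a median of 9 in the heme library. The cells were divided into those with 0 to 4, 5 to 19 and 20 or more Elane UMIs, with 57, 55 and 69 control cells and 104, 82 and 85 heme library cells. These groups were formed on the same cells and share their library, so the differences are described without a test.

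Cells with little Elane held the most Flt3 and Ms4a6c. They also held the most Irf8, a rule gene whose values are a description only. Irf8 was at 775, 618 and 449 CPM from the lowest to the highest Elane group in the control library, and at 1083, 710 and 529 CPM in the heme library. Flt3, a receptor of early lymphoid and dendritic progenitors (chr5:147330741-147400489), was at 52.6, 7.27 and 5.80 CPM (control) and 90.4, 14.6 and 2.35 CPM (heme library), and in both the interval of the lowest group (29.5 to 86.8 and 66.4 to 120) stood clear of the others. Ms4a6c was at 681, 578 and 432 CPM and at 477, 412 and 268 CPM. Klf4 was at 84.2, 87.3 and 40.6 CPM and at 123, 100 and 56.5 CPM.

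Cells with much Elane held more of the other granulocyte progenitor transcripts and of Ly6c2. Ms4a3, a membrane protein of granulocyte and monocyte progenitors, was at 59.6, 265 and 681 CPM (control) and 38.5, 244 and 555 CPM (heme library). Prtn3 was at 3039, 5029 and 7104 CPM and at 1963, 3802 and 5209 CPM, and Mpo, a rule gene, at 2161, 3585 and 4939 CPM and at 2181, 5412 and 7388 CPM. Ly6c2 was at 860, 1524 and 1942 CPM and at 877, 1446 and 1845 CPM. Gfi1 was at 0, 3.64 and 14.5 CPM and at 5.77, 22.0 and 21.2 CPM, with intervals that met between all groups of a library. Cd34, an antigen of early progenitors, was at 242, 156 and 180 CPM and at 273, 251 and 195 CPM, so its intervals also met.

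**Figure D3:**
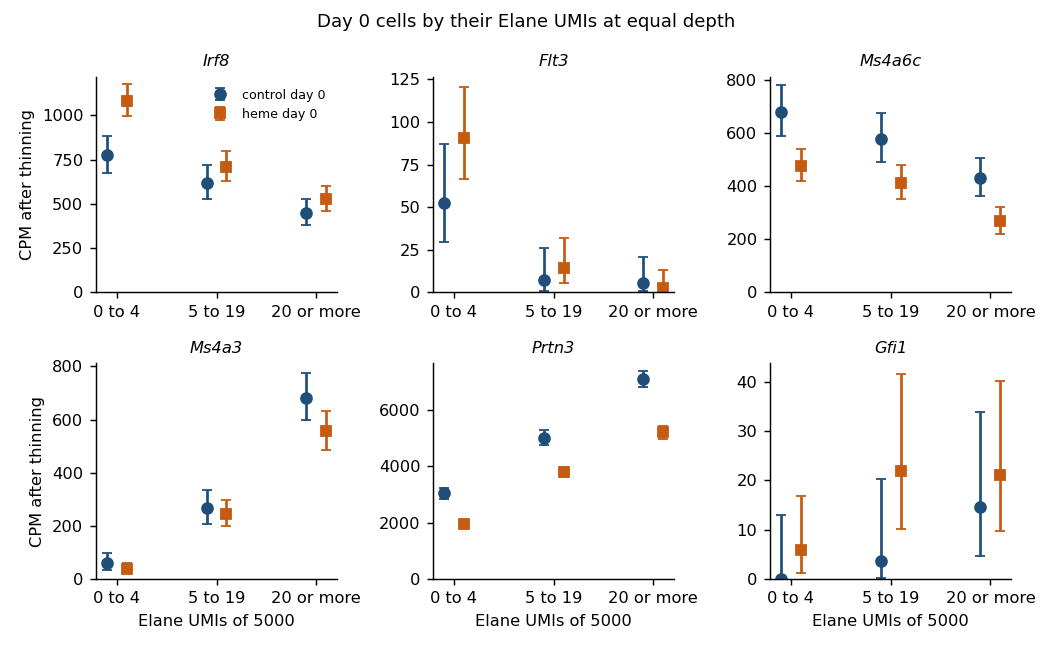
Levels of 6 genes (y axis, CPM after thinning each cell to 5000 UMIs) in day 0 cells grouped by their Elane UMIs of 5000 (x axis), with exact 95% intervals for counting error. Irf8 (a rule gene), Flt3 and Ms4a6c decline and Ms4a3 and Prtn3 increase from the lowest to the highest Elane group in both libraries.

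On day 3 the same groups held 1, 19 and 10 control cells and 14, 42 and 14 heme library cells. Ms4a3 was at 1000, 1053 and 1620 CPM in the control and 500, 710 and 1029 CPM in the heme library, above the day 0 level of the same Elane group. Flt3 had no UMI in any of these groups. In the lowest Elane group the exact intervals reached up to 738 CPM with the 1 control cell and 52.7 CPM with the 14 heme library cells, so the control group says nothing of Flt3 at the day 0 level.

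Between day 0 and day 3 of GM-CSF culture, the selected cells gained transcripts of cytokine feedback and cholesterol synthesis. They lost those of early progenitors. Granulocyte-type cells shared rises and falls of these kinds, as given below. The libraries gave the comparison of the days side by side. Of 8334 genes tested, 312 rose (3.74%) and 290 fell (3.48%) past the fold in both libraries, so 51.8% of these rose. With totals that leave out ribosomal protein and mitochondrial genes, which took smaller shares on day 3, this share was 36.6%. The pools held 2427462 and 4597715 UMIs on day 0 and 869952 and 2672770 on day 3, so the control library on day 3, with 30 cells, limits the precision. The limit of 30% ribosomal UMIs left 11 control cells on day 0 and gave 117 higher and 70 lower genes, with Flt3, Fosb, Pparg and Mrc1 among those that missed the fold or the 20 UMIs. The limit of 5000 genes left 10 heme library cells on day 3 and gave 188 and 114, with Vcan, Socs2 and Thy1 among those that missed.

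In the cytokine feedback list 5 of 7 genes rose and none fell, with a median log2 ratio of 3.48 in the control and 2.66 in the heme library, against 0.15 and 0.09 over all genes tested. Cish, an inhibitor of STAT5 signalling (chr9:107296026-107302784), was at 3.30 and 13.5 CPM on day 0 and 131 and 186 CPM on day 3, ratios of 39.8 and 13.8. On day 0 its detection at 5000 UMIs (2.76% and 7.01% of cells) was close to that in erythroid cells (2.66% and 6.65%). Whether this low level was free RNA was not tested. On day 3 Cish had a UMI in 50% and 61.4% of the selected cells against 23.2% and 37.2% of granulocyte-type cells. It also had a UMI in 25% of the 16 erythroid cells of the heme library. Socs2 and Socs1, inhibitors of the same pathway, rose 31.4 and 29.4-fold and 11.2 and 3.77-fold. Pim1, a kinase induced by STAT5, rose 9.71 and 6.51-fold, and Bcl2a1b, an inhibitor of apoptosis with near-identical copies that make its count uncertain, 19.2 and 6.31-fold.

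Of 8 growth factor receptors, 2 rose and 3 fell. Csf2rb, the signalling chain of the GM-CSF receptor (chr15:78325752-78353847), rose from 42.0 and 90.7 CPM to 186 and 351 CPM, and its paralog Csf2rb2 from 3.30 and 12.6 CPM to 20.7 and 33.3 CPM. Csf2rb was detected in 74.3% of the heme library cells of day 3 at 5000 UMIs and in 75% of the 16 erythroid cells. Its detection did not set the selected cells apart, and the part of free RNA was not tested. Csf2ra, the chain that binds GM-CSF, was not past the fold, with 62.6 and 58.5 CPM on day 0 and 83.9 and 105 CPM on day 3. Flt3 fell from 15.2 and 33.1 CPM to 0 UMIs in both libraries, which allows up to 3.45 and 1.12 CPM and at most 0.226 and 0.0340 times its day 0 level. Kit, the receptor for stem cell factor, fell to 0.239 and 0.328 times, and Csf3r, the receptor for G-CSF, to 0.326 and 0.366 times. Csf1r was at 75.8 and 103 CPM on day 0 and 37.9 and 80.4 CPM on day 3, and was not past the fold.

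Among other genes of early progenitors, Cd34 fell from 174 and 228 CPM to 4.60 and 10.5 CPM, and Sox4, a transcription factor of progenitors, fell from 222 and 280 CPM to 17.2 and 34.8 CPM. Myb, which maintains progenitor proliferation, fell to 0.271 and 0.283 times and was the 1 of 6 granulocyte fate factors past the fold. Of 8 monocyte fate factors, Cebpb, which acts in emergency myelopoiesis, rose 4.11 and 3.94-fold, Irf5 rose 2.11 and 2.75-fold, and Irf8 and Zeb2 fell. Irf8 was a rule gene, and Zeb2 went from 321 and 573 CPM to 114 and 191 CPM.

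The monocyte surface and effector list split, with 5 of 12 genes higher and 4 lower. Vcan, a matrix proteoglycan of monocytes (chr13:89655312-89742509), rose from 1.24 and 3.70 CPM to 107 and 159 CPM, with ratios of 86.5 (28.7 to 427, from 3 UMIs on day 0) and 42.9 (26.5 to 74.3). At 5000 UMIs a cell, Vcan was detected in 23.3% and 32.9% of the selected day 3 cells, against 0.671% and 3.01% of granulocyte-type cells. Lyz2 (lysozyme) rose 3.44 and 4.15-fold, and S100a4, Fcgr1 and Cybb were the others that rose. At 5000 UMIs a cell, however, Lyz2 was detected in 84.5% of the heme library cells of day 0 against 74.9% of erythroid cells, and in 94.3% on day 3 against 93.8% of 16 erythroid cells. Cybb was detected in 85.7% of the heme library cells of day 3, against all 16 erythroid cells and 88.4% of granulocyte-type cells. The day 3 detection of both in the heme library thus did not set the selected cells apart. These 16 erythroid cells also held a median of 137.5 S100a8 UMIs per 5000, against 4 in the selected cells. They carried granulocyte transcripts and so do not give the level of free RNA. In the control library only 2 erythroid cells of day 3 could be compared. Ms4a6c fell to 0.121 and 0.126 times, and Ms4a6b, Ly86 and the rule gene F13a1 fell too. The markers of the list thus did not move as 1 group.

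The metabolic genes past the fold all rose. In the cholesterol synthesis list 6 of 9 genes rose and none fell, with median log2 ratios of 2.13 and 1.27. Among the genes that rose were the pathway enzymes Hmgcs1, Idi1, Fdft1, Sqle and Cyp51, with Sqle, squalene epoxidase, at 9.89 and 18.5 CPM on day 0 and 58.6 and 61.4 CPM on day 3. In the glycolysis list 3 of 10 rose and none fell, among them Slc2a1, the glucose transporter, with ratios of 12.1 and 4.32. Of 5 lipid handling genes, Fabp5, Lpl (lipoprotein lipase) and Lgals3 (galectin 3) rose, with Lpl at 21.0 and 66.8 CPM on day 0 and 166 and 446 CPM on day 3. Of 6 heme and iron genes, Ftl1 (ferritin light chain) and Tfrc (transferrin receptor) rose.

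In the primary granule list Ctsc rose 6.24 and 5.36-fold, the rule gene Mpo fell, and the other 6 of 8 were not past the fold, including Elane with ratios of 1.01 and 0.789. Of 8 chemoattractant and adhesion receptors, Ccr1 and Itgam (integrin CD11b) rose and Cx3cr1 fell, with 51.9 and 52.4 CPM on day 0 and 19.5 and 4.86 CPM on day 3. Ifitm3, a protein that blocks virus entry, rose, 1 of 4 interferon-stimulated genes. None of 16 cell cycle, 6 MHC class II and 5 chemokine genes tested was past the fold, and the median log2 ratios of the cell cycle list were 0.27 and 0.19.

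Of 8 handling response genes, the immediate early genes that rise when cells are dissociated and prepared, 4 fell (Fos, Fosb, Jun and Dusp1) and none rose. Fos went from 205 and 144 CPM to 1.15 and 3.74 CPM. By their labels the day 0 cells had not been cultured, although the study also describes staggered starts with a common harvest, and the part of cell preparation in the day difference was not tested.

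The 10 genes with the largest rise by the ratio nearest to 1 were Myl10 (a myosin light chain), Thy1 (the surface antigen CD90), Vcan, Socs2, Tln2 (talin 2), Thbs1 (thrombospondin 1), Pparg (a lipid-sensing nuclear receptor), Phlda1, Mrc1 (the mannose receptor) and Nupr1. Thbs1 rose from 11.1 and 23.5 CPM to 343 and 482 CPM, and Thy1 from 0 and 1.96 CPM to 67.8 and 123 CPM. Pparg rose from 1.24 and 1.09 CPM to 25.3 and 23.2 CPM. The 10 with the largest fall were Aff3, Kcng1, Flt3, Krt18, Fosb, Adgrl4, Fos, Dpp4, Ms4a4b and Rnf227, and all 10 were at 3.74 CPM or less in both day 3 cultures.

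Granulocyte-type cells of the same cultures are given beside these values, with no test of a difference between the cell sets. Their day 3 to day 0 ratios were 16.3 and 10.3 for Cish, 2.6 and 2.98 for Csf2rb, 0.00772 and 0.0222 for Cd34 and 0.065 and 0.0645 for Ms4a6c, all with intervals that left out 1, so these 4 genes went in the same direction in both sets. Flt3 had 4 UMIs or fewer per culture in granulocyte-type cells, with ratios of 0.0957 (0.00162 to 1.84) and 0.158 (0.0268 to 1.08) that show no direction. The cholesterol synthesis enzymes named above rose in granulocyte-type cells too. Their ratios were 3.17 and 3.28 for Hmgcs1, 6.86 and 8.4 for Idi1 and 5.48 and 4.65 for Fdft1. Sqle rose 4.48 and 5.58-fold and Cyp51 4.75 and 4.55-fold. Pim1 rose 8.94 and 8.27-fold in granulocyte-type cells, Thbs1 13.7 and 24.4-fold and Thy1 21.8 and 70.2-fold. Myl10 rose 48.4 and 85.0-fold there, and Nupr1 42.5 and 30.6-fold from 1 UMI on day 0. Cebpb rose 4.30 and 3.29-fold, and Zeb2 fell to 0.187 and 0.218 times. Myb fell to 0.211 and 0.180 times and Sox4 to 0.0602 and 0.0671 times. These genes went in the same direction in both sets. Irf5, at 1.23 (0.474 to 4.03) and 1.04 (0.499 to 2.50), showed no direction in granulocyte-type cells. Vcan also rose in granulocyte-type cells, from 0 to 27 UMIs in the control library and 2.15-fold (1.06 to 5.08) in the heme library. Its day 3 level there, 4.38 and 11.6 CPM, was below that of the selected cells.

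**Figure D4:**
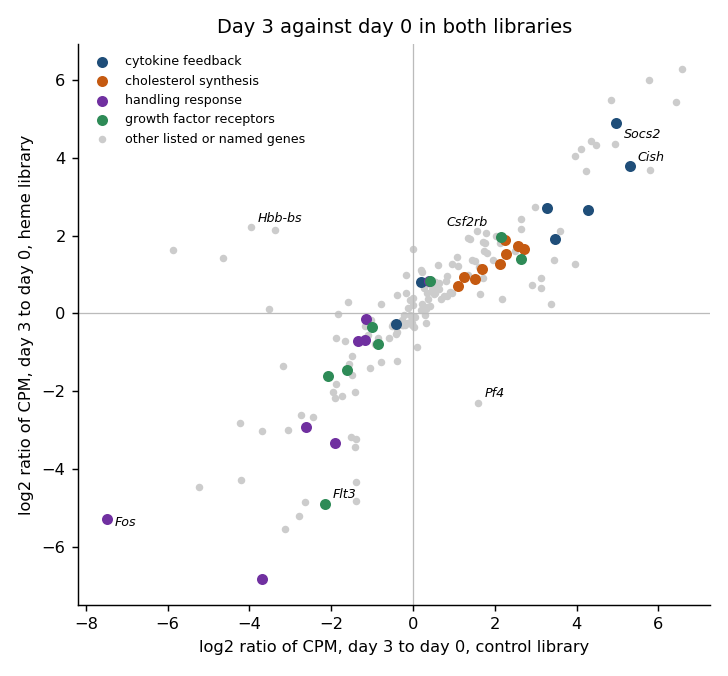
Log2 ratio of CPM, day 3 to day 0, in the control (x axis) and heme library (y axis) for the listed or named genes tested, with 4 lists in colour and genes at 0 placed at the bound that 3 counts give. Most cytokine feedback and all cholesterol synthesis genes lie at the upper right and most handling response genes at the lower left, while Hbb-bs and Pf4 lie in opposite quadrants between the libraries.

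The libraries themselves differed on days before exposure. In the selected cells, 376 of 8702 genes tested were higher (4.32%) and 3 lower (0.0345%) in the heme than in the control library on both days, and the median log2 ratio over all genes was 0.40 on day 0 and 0.33 on day 3. Thus 99.2% of the genes past the fold were higher by CPM, while TMM factors, which set the median near 0, gave 53 higher and 65 lower genes (44.9% higher) and DESeq2 size factors 51 and 68 (42.9%). The fold values and list counts given below are CPM ratios that were not corrected for this shift. With at most 5000 genes per cell 115 genes were higher and 6 lower, and under the ribosomal limit 67 and 5.

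Hmox1, the gene of heme oxygenase 1 (chr8:75093621-75100589), was at 2.47 CPM in the control and 113 CPM in the heme library on day 0, and at 4.60 and 126 CPM on day 3. The ratios were 45.6 (20.8 to 125) and 27.4 (10.6 to 101). Granulocyte-type cells held 0.848 and 103 CPM and erythroid cells 0.891 and 114 CPM on day 0. At 5000 UMIs a cell, 42.4% of the selected heme library cells of day 0 had a Hmox1 UMI, as did 41.9% of erythroid cells. The Hmox1 level of the selected cells was thus at the level shared by cells of other types in the same pool. Whether it was free RNA or expression in these cells was not tested.

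Gpnmb, a membrane protein of macrophages, was 8.03 and 13.5-fold higher, Clec4n, a C-type lectin of macrophages, 6.51 and 6.07-fold and Mt3, a metallothionein, at least 8.1-fold and 6.51-fold higher (1.04 to 270 on day 3, from 1 UMI in the control library). Plxna1, a semaphorin receptor, was 5.46-fold higher on day 0 (1.70 to 27.9) and at least 4.45-fold on day 3. Clec4n was at 14.0 and 91.1 CPM in the selected cells of day 0, 16.1 and 98.5 CPM in granulocyte-type cells and 12.5 and 87.7 CPM in erythroid cells. The macrophage genes thus stood at like levels in all 3 cell sets of a library. The 3 lower genes were Npl, at 26 and 10.2 CPM on day 0, Ubb (ubiquitin B), at 1572 and 652 CPM, and 0610009B22Rik, at 35.4 and 15.0 CPM.

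Of the lists, Hmox1 (1 of 8 heme and iron genes), the chemokine Cxcl2 (1 of 5 chemokines), and Lpl and Gpnmb (2 of 6 lipid handling genes) were higher, and none was lower. No gene was past the fold among 8 monocyte fate factors, 6 granulocyte fate factors, 8 primary granule genes, 7 growth factor receptors, 8 chemoattractant and adhesion receptors, 6 cytokine feedback genes, 11 monocyte surface and effector genes, 16 cell cycle genes, 10 glycolysis genes, 9 cholesterol synthesis genes, 6 MHC class II genes, 5 handling response genes and 4 interferon-stimulated genes. Ccr2, for instance, was 1.31 (1.16 to 1.48) and 1.75-fold (1.45 to 2.13) higher and Ms4a6c 0.716 (0.665 to 0.771) and 0.747 times (0.539 to 1.05).

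**Figure D5:**
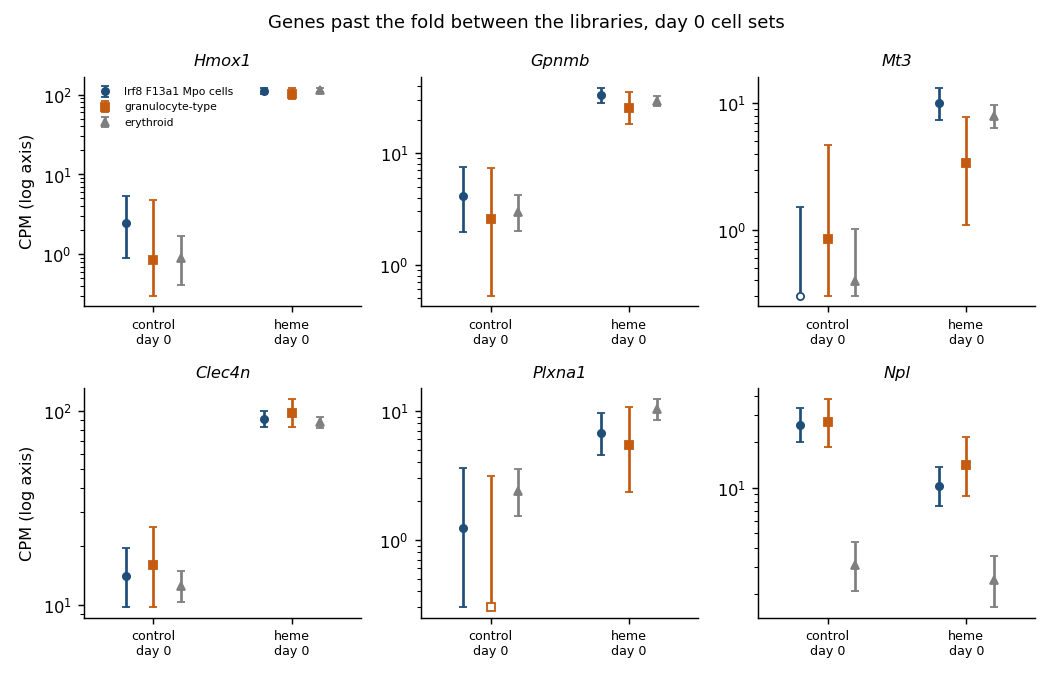
Levels of 6 genes (y axis, CPM, log axis) in the day 0 cells of the control and heme libraries (x axis) for Irf8 F13a1 Mpo cells, granulocyte-type cells and erythroid cells, with exact 95% intervals for counting error and open symbols at 0.3 CPM for a count of 0. Hmox1, Gpnmb and Clec4n are near 113, 33.1 and 91.1 CPM in the heme library and differ little between the cell sets.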

How the data were processed

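The deposited matrices hold raw UMI counts of 26124 genes per barcode. The authors made them in Cell Ranger (5.0.0 in the matrix headers, 4.0.0 in the submitters' processing notes) on GRCm38.p6 per those notes. Hashtag calls were made by the authors with Seurat 3.2.3 and used as deposited. The libraries held 198754588 (control) and 333481636 (heme) gene UMIs in 13961 and 17378 barcodes. Of these, 12050 and 14164 carried 1 hashtag. No doublet caller was run beyond the hashtag calls.

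From these counts, UMIs were summed per cell set and culture and scaled to CPM with Python 3.11.15, numpy 2.4.6, pandas 2.3.3 and scipy 1.17.1. Ratios carry exact 95% intervals for 2 Poisson counts and shares exact (Clopper-Pearson) binomial intervals. UMIs are not replicates of cultures, so these cover counting error only. A count of 0 was read as allowing 3 counts per pool. Cells were thinned to 5000 UMIs without replacement (seed 1). The comparison scripts were tested on simulated data. Alternatives used TMM factors (edgeR 4.0.16) and median-of-ratios size factors (DESeq2 1.42.0 method) in R 4.3.3, other cell limits, thresholds and filters.

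Past the fold meant a ratio of at least 2 or at most 0.5 in all ratios of a comparison, with 20 UMIs and intervals that leave out 1. Named were the 10 genes per direction (5 between libraries) ranked by the ratio nearest to 1, without rule, mitochondrial and ribosomal protein genes, and the list genes past the fold, of which some are not reported here. Other list genes are named with their values where they answer a comparison, and these were chosen after their values were seen. The members and lists were chosen with earlier results of these data known. Positions come from GENCODE M21 (GRCm38), which matched 242 of 242 listed genes by identifier. Of 26124 genes, 35 symbols occur in 2 rows and were kept apart by identifier. The design text and the labels give different exposure times, and the study also describes cultures begun on different days and harvested together on day 7. Days are those of the hashtag labels, read as time in culture, and this reading could not be checked.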

Additional observations from a re-analysis of the deposited data

Results flagged for a closer look

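The day 3 to day 0 ratios of the hemoglobin genes in the selected cells went down in the control library and up in the heme library. They were 0.0397 and 2.69 for Hba-a1, 0.0962 and 4.43 for Hba-a2, 0.0637 and 4.64 for Hbb-bs and 0.0171 and 3.07 for Hbb-bt. Granulocyte-type cells went the same way, with 0.0568 and 2.55 for Hba-a1 and 0.0439 and 2.56 for Hba-a2. For Hbb-bs they had 0.0389 and 2.62 and for Hbb-bt 0.0416 and 2.57, so the hemoglobin pattern was not particular to the selected cells. Hba-a1 and Hba-a2 are near-identical copies, so the split of reads between them is uncertain. Pf4, a platelet chemokine, went the other way in the selected cells, with 2.99 in the control and 0.205 in the heme library. In granulocyte-type cells the Pf4 ratios were 0.0221 and 0.919, which is not this pattern. The difference between the libraries was not tested, since each has 1 culture per day.

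The same transcripts at the same thresholds also occurred outside the days described. On day 4 they were found in 6 control and 5 heme library cells, on day 5 in 2 control and 4 heme library cells, and on day 7 in 2 cells of each library. Among kept barcodes with several hashtags they were found in 54 of 1244 in the control and 139 of 1951 in the heme library. Among kept barcodes without a hashtag they were found in 0 of 402 and 11 of 907. These barcodes entered no comparison.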

How the results depend on the processing

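No named gene turned its direction in all ratios of its comparison under any alternative run. The share of selected cells (control and heme library on day 0, then on day 3) moved with depth and thresholds. At 5000 UMIs a cell it was 8.02%, 12.2%, 0% and 0.123%, and at 3000 UMIs 3.14%, 6.22%, 0% and 0.0301%. Without the Mpo threshold it was 15.0%, 20.9%, 3.30% and 6.24%. Irf8 at 4 UMIs gave 8.63% in the control library on day 0 and 0.622% and 1.34% on day 3. Under the 30% ribosomal limit the day 0 shares were 3.01% (1.51 to 5.31, 11 of 366 cells) and 11.8%. The day 3 shares were then 1.45% (0.983 to 2.07) and 2.09%, so the control library intervals of the days met. Under the 5000 gene limit the day 3 shares were 0.891% and 0.460%. Mpo at 10 UMIs gave 0.910% and 1.55% and F13a1 at 2 UMIs 0.910% and 1.46% on day 3. The genes past the fold (higher, lower) from day 0 to day 3 numbered 188 and 114 under the 5000 gene limit, 117 and 70 under the ribosomal limit, and 182 lower ones with a 50 UMI filter. Between libraries they numbered 115 and 6 under the gene limit, 67 and 5 under the ribosomal limit, 53 and 65 with TMM and 51 and 68 with DESeq2 size factors, and the lower ones 5 with Mpo at 10 UMIs, 7 without ribosomal and mitochondrial totals and 5 with cells weighted equally. Against granulocyte-type cells they numbered 52 and 34 under the gene limit, 18 and 10 under the ribosomal limit and 57 and 36 with a 50 UMI filter. Fewer cells or genes are tested by construction under the limits and filter, and for the scalings the median of all genes moves by construction. The causes of the other moves were not tested. Over all alternatives, the values of genes named by rank stayed past the fold in 168 cases and fell short of it, or of its count minimum, in 49 for day 3 against day 0, in 70 and 18 between libraries and in 184 and 34 against granulocyte-type cells. With TMM, DESeq2 size factors or totals without ribosomal and mitochondrial genes, Mt3 was the 1 such gene that fell short, with TMM and DESeq2 size factors. Thinned to 5000 UMIs, no gene comparison could be made on day 3 of the control library, where no cell met the rule. Leaving out a replicate was not possible with 1 library per group. No paired analysis was possible because each group has 1 library and the labels pair no samples.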
